A study of Mus musculus with 4 samples.

Results

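The cyclin-dependent kinase (CDK) inhibitors are small proteins that bind CDKs or their cyclin complexes and hold back entry into S phase. The genes described here are the 7 inhibitors of the mouse Cip/Kip and INK4 families, taken as every probe set on the array that the platform annotation gives to exactly one of them. This gave 9 probe sets for 7 genes, out of 12488 probe sets on the array and 8251 genes with a symbol of their own. Cdkn1a and Cdkn1b had 2 probe sets each and the other 5 genes 1 each. The family was selected on a measured value, the fall of the Cdkn1c signal from PBS to TGFb2 on these arrays, so the TGFb2 against PBS differences of its members are given as a description, with standard errors and intervals from the fit over all probe sets and no p-values.

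The 3 Cip/Kip proteins, p21 (Cdkn1a), p27 (Cdkn1b) and p57 (Cdkn1c), act on cyclin E and cyclin A complexes of CDK2 and also bind the cyclin D kinases. The 4 INK4 proteins, encoded by Cdkn2a, Cdkn2b, Cdkn2c and Cdkn2d, bind CDK4 and CDK6 and keep D cyclins off them. Transforming growth factor beta (TGF-beta) is best known in this setting for arresting epithelial cells in G1, where it raises Cdkn2b and Cdkn1a and lowers Myc. Elicited macrophages divide little in culture, and p57 is an imprinted gene product that is studied mostly in embryonic tissues and stem cells.

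RNA came from peritoneal exudate cells of female BALB/c mice, 6 to 8 weeks old, that had received 2 ml of 3% thioglycolate, an irritant that recruits macrophages, 4 days earlier. The cells stood overnight in serum-free medium with a transferrin and selenium supplement and either porcine TGFb2 (5 ng, with no volume stated) or PBS, and the adherent fraction, labelled as more than 95% F4/80+, was taken. No genetic change is labelled, and each group holds 2 arrays, so n = 2 arrays per group throughout. The labels do not say whether the 2 arrays of a group stand for separate mice, pools or cultures, so the spread between them may be technical.

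Values are MAS5 signals, a background-corrected probe set intensity on a linear scale, and all 4 arrays had the same trimmed mean of 150.1. Log2 signals correlated at 0.979 between the PBS arrays and 0.968 between the TGFb2 arrays, against 0.955 to 0.966 across groups. The signals of 12 macrophage marker genes summed to 16961 and 17937 under PBS and to 18777 and 19378 under TGFb2. Both TGFb2 sums lay above both PBS sums, and such sums do not measure the purity that the label states. Adgre1, which encodes F4/80, gave 488.1 and 779.9 with PBS and 470.9 and 747.7 with TGFb2 in its brighter probe set. Of the markers of T cells, Cd3d, Cd3e, Cd3g and Cd8a lay below the level filter. Cd4 passed it, at 52.8 and 17.3 with PBS and 14.3 and 39.6 with TGFb2. Markers of other cells also gave signal on the 4 arrays. Their sums ran from 162.8 to 246.2 for B cells and from 387.4 to 531 for mast cells. Those of fibroblasts and mesothelium ran from 1807 to 2536.

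Cdkn1c had the largest difference of the inhibitors that passed the level filter. Its probe set, 95471_at, read 1252.2 and 1243.3 on PBS replicates 1 and 2 and 129.3 and 186.8 on TGFb2 replicates 1 and 2. Both TGFb2 arrays lay far below both PBS arrays, and the PBS arrays were nearly equal. The mean went from 1248 ± 6.29 to 158 ± 40.7 (SD, n = 2 arrays per group), a mean 7.89-fold lower, and single PBS arrays exceeded single TGFb2 arrays by 6.66-fold to 9.68-fold. On the log2(signal + 15) scale the difference was -2.89 with a standard error of 0.20 and a 95% interval of -3.34 to -2.43. It ranked 1 of 7453 tested probe sets by size of fall, the value on which the family was chosen.

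**Figure D1:**
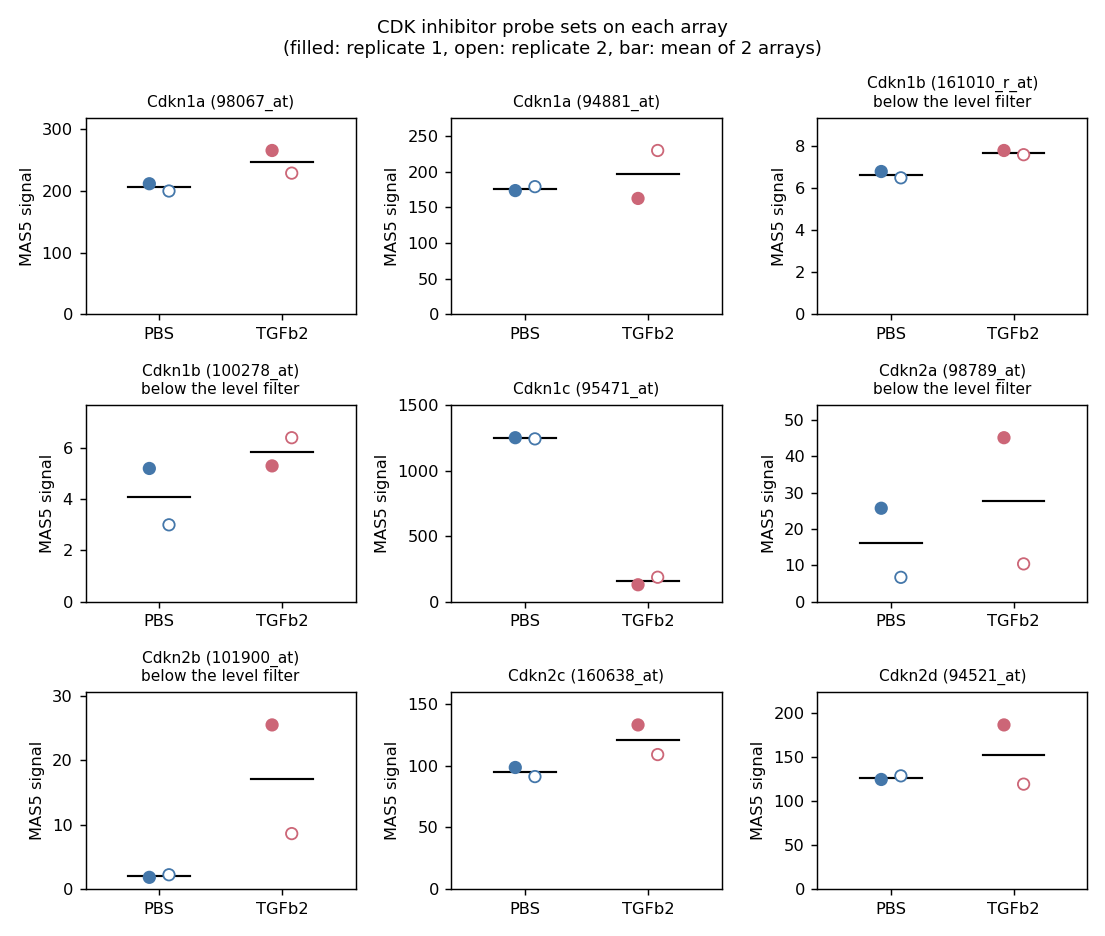
MAS5 signal (vertical axes, each from 0 and scaled to its own probe set) of the 9 probe sets of the 7 CDK inhibitor genes under PBS and TGFb2. Filled points are replicate 1, open points replicate 2 and bars the mean of 2 arrays; Cdkn1c drops from 1252.2 and 1243.3 to 129.3 and 186.8, while the 8 other probe sets have a TGFb2 mean signal above their PBS mean (the log2 difference of 4 of them, 1 each of Cdkn1a, Cdkn1b, Cdkn2a and Cdkn2d, is negative under at least 1 other setting).

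No tested relative showed such a fall. All 8 probe sets of the relatives had a higher mean signal with TGFb2 than with PBS. Only 4 of the 8 were tested, and 50.3% of all tested probe sets had a higher TGFb2 mean. That share was not taken over probe sets below the level filter. The log2 difference of 4 of the 8, 1 each of Cdkn1a, Cdkn1b, Cdkn2a and Cdkn2d, turned negative under at least 1 other setting or with 1 array left out. The level filter kept probe sets whose mean log2 signal reached the 40th percentile, a signal of about 24.0. It passed 5 of the 9 inhibitor probe sets, those of Cdkn1a, Cdkn1c, Cdkn2c and Cdkn2d, and left out the 4 of Cdkn1b, Cdkn2a and Cdkn2b. In the limma fit over all 7453 tested probe sets, 1.18% were called at an adjusted p of 0.05, with 0.362% called lower and 0.818% called higher with TGFb2. That fit called Cdkn1c among the inhibitors, which repeats the value for which the family was chosen and is read no further.

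Among the Cip/Kip relatives, Cdkn1a, which encodes p21, the inhibitor best known as a p53 target, was measured by 2 probe sets. The first, 98067_at, read 212 and 200.2 with PBS and 265.9 and 229.2 with TGFb2. The groups did not overlap, but the means, 206 ± 8.34 and 248 ± 26.0, differed by 0.24 on the log2 scale with a 95% interval of -0.16 to 0.65. The second, 94881_at, read 173.4 and 178.9 with PBS and 162.4 and 229.5 with TGFb2. Here the TGFb2 arrays fell on either side of the PBS arrays, and the difference was 0.12 (95% interval -0.35 to 0.60); it was -0.11 without TGFb2 replicate 2. Neither interval held a change of the size seen for Cdkn1c in either direction, and both held 0.

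Cdkn1b encodes p27, the inhibitor that holds many resting cells out of the cycle and is removed by an SCF ubiquitin ligase. Both of its probe sets were dim. The first, 100278_at, read 5.2 and 3 with PBS and 5.3 and 6.4 with TGFb2. The other, 161010_r_at, whose suffix marks a probe set designed under relaxed rules, read 6.8 and 6.5 with PBS and 7.8 and 7.6 with TGFb2. The groups did not overlap in either probe set, yet all 8 values lay far under the filter level, and without detection calls no presence of the transcript was known. Their log2 differences were 0.13 and 0.07, and the latter was -0.002 after quantile normalization.

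Among the INK4 genes, Cdkn2c, which encodes p18, read 98.7 and 91.3 with PBS and 133.3 and 109.2 with TGFb2. The groups did not overlap, with means of 95.0 ± 5.23 and 121 ± 17.0 and a log2 difference of 0.30 (SE 0.19, 95% interval -0.14 to 0.75). Cdkn2d, which encodes the INK4 protein p19, read 124.4 and 128.5 with PBS and 186.4 and 119.1 with TGFb2. The TGFb2 arrays lay on both sides of PBS, and the difference was 0.22 (SE 0.23, 95% interval -0.31 to 0.75); it was -0.08 without TGFb2 replicate 1. Groups without overlap made up 42.8% of all tested probe sets, 21.1% with TGFb2 higher and 21.7% with TGFb2 lower. Of the 4 tested probe sets of relatives, 2 had groups without overlap, both higher.

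Cdkn2a yields p16 and, from another first exon, the p53 activator ARF, and the annotation does not say which its probe set reads. Its signals were 25.7 and 6.7 with PBS and 45.1 and 10.4 with TGFb2. The replicates of each group differed more than the group means did, and the log2 difference of 0.39 was -0.23 without TGFb2 replicate 1 and -0.06 without PBS replicate 2. Cdkn2b encodes p15, the INK4 protein that TGF-beta raises in epithelial cells, and lies beside Cdkn2a in the genome. It read 1.8 and 2.2 with PBS and 25.5 and 8.6 with TGFb2. The groups did not overlap, but only TGFb2 replicate 1 reached the filter level. The log2 difference of 0.86 depended on the pseudocount, at 2.41 with a pseudocount of 1 and 0.30 with 4 times the pseudocount, so no fold is given for it.

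**Figure D2:**
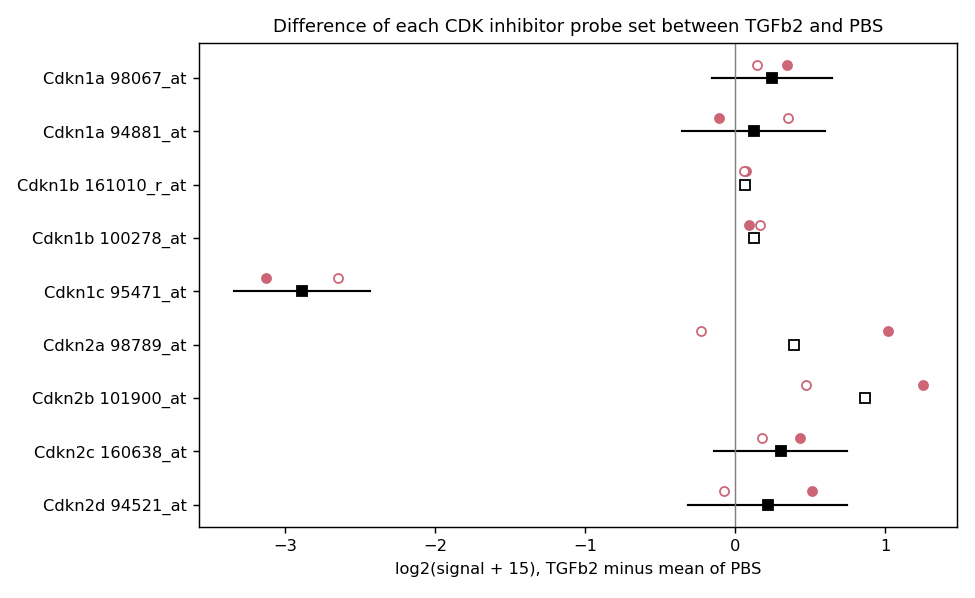
Difference of each CDK inhibitor probe set on the log2(signal + 15) scale (horizontal axis, TGFb2 minus the mean of PBS). Squares are the differences of the group means with 95% intervals from limma for tested probe sets (filled) and without an interval for those below the level filter (open); red circles are TGFb2 replicates 1 (filled) and 2 (open). Cdkn1c stands at -2.89, and the 4 intervals of Cdkn1a, Cdkn2c and Cdkn2d all hold 0.

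Promoter sequence in RefSeq (GRCm38.p6) was at hand for 6 of the 7 genes, without Cdkn1c. The 250 bases before the start of Cdkn1a (its downstream start, plus strand, chr17:29093519-29093768) and of Cdkn2b (minus strand, chr4:89311033-89311282) are shown because these are the relatives that TGF-beta is known to raise elsewhere, through GC-rich sites near the start. Capitals mark matches to the GC box GGGCGG on either strand.
Cdkn1a: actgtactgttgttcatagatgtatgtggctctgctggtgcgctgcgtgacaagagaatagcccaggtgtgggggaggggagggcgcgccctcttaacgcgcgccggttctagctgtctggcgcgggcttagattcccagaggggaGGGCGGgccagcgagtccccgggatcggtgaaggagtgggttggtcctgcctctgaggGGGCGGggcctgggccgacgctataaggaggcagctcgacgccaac
Cdkn2b: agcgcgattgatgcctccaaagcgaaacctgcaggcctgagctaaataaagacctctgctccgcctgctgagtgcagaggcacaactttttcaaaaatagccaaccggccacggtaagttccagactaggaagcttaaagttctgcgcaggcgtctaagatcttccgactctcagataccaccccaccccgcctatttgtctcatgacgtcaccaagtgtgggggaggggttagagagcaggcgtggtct
The Cdkn1a window held 2 GC boxes and the Cdkn2b window 0, where 32.7% of 32851 promoter windows of this length hold at least 1. Each window held 1 match to CAGAC, a short Smad-binding sequence searched on both strands and found in 42.2% of windows. Upstream of the other start of Cdkn1a there were 0 GC boxes. The window of Cdkn2d held 3 GC boxes, that of Cdkn1b 1, and those of the starts of Cdkn2a and Cdkn2c 0 or 2 and 0 or 3. These matches describe the letters alone.

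Set against its tested relatives array by array, Cdkn1c changed by -3.12 on the log2 scale relative to the mean of Cdkn1a, Cdkn2c and Cdkn2d, with a pooled SD of 0.36 between arrays of a group. The change was -3.48 on TGFb2 replicate 1 and -2.76 on TGFb2 replicate 2, each relative to the PBS mean. Against single relatives it was -3.07 for Cdkn1a, averaged over its probe sets, -3.19 for Cdkn2c and -3.10 for Cdkn2d. The arrays of a group spread most in the difference between Cdkn1c and Cdkn2d, with a pooled SD of 0.54. These contrasts contain the fall that led to the choice of Cdkn1c and were not tested.

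The log2 SD was larger between the 2 TGFb2 arrays than between the 2 PBS arrays in 7 of the 9 inhibitor probe sets, all but those of Cdkn1b. TGFb2 replicate 1 had the lower Cdkn1c signal and was the higher of the pair in 6 of the 8 probe sets of relatives. Over all tested probe sets, which include only 4 of those 8, TGFb2 replicate 1 was the higher in 53.6%. The log2 SD of the TGFb2 arrays was 0.34 for Cdkn1c and 0.41 for Cdkn2d, against a median of 0.17 over tested probe sets. The corresponding SD of the PBS arrays was 0.0072 and 0.030, against a median of 0.13.

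The genes whose 4 values ran closest to Cdkn1c were sought among 5638 other named genes, by the root mean square distance of log2 values centred on each probe set's mean over the 4 arrays. The nearest was the chemokine Ccl9, at a distance of 0.54, with 3045.4 and 4854.1 under PBS and 486.1 and 1370.9 under TGFb2. Arih1, a ubiquitin ligase gene, followed at 0.59 (596.6 and 539.6, then 136.6 and 195.3). The difference of Arih1 was -1.71 in that probe set and -0.21 in another. Dio2, which activates thyroid hormone, stood at 0.62 and the neutrophil chemokine Cxcl5 at 0.65. Wfs1, an endoplasmic reticulum membrane protein gene, came at 0.69 (540.4 and 327.3, then 84.4 and 178.7). Ccl9, Arih1 and Wfs1, like Cdkn1c, were lowest on TGFb2 replicate 1, whereas Dio2 and Cxcl5 were lowest on replicate 2. With 4 arrays, 2 of each kind, this likeness is little more than a shared large fall.

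**Figure D3:**
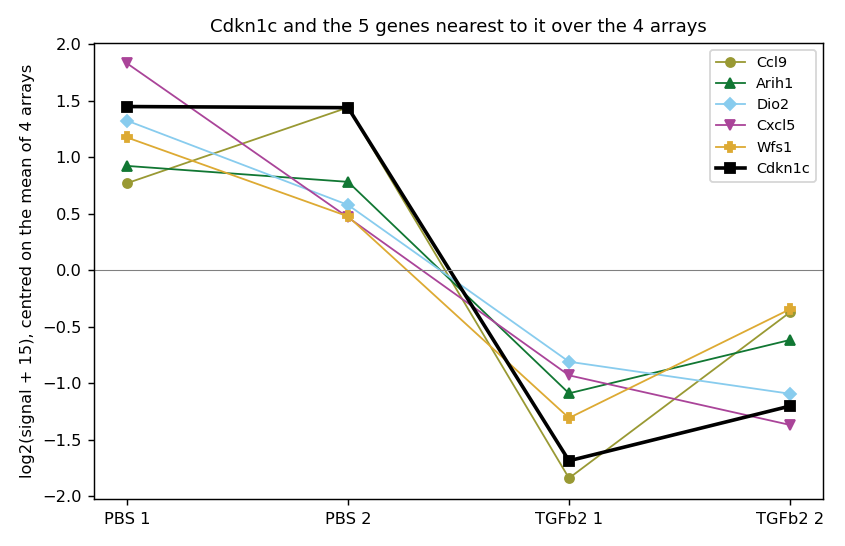
Log2(signal + 15) of Cdkn1c and its 5 nearest genes on each array (horizontal axis), centred on the mean of the 4 arrays (vertical axis); lines join the points of a gene and imply no order of replicates. Distances run from 0.54 for Ccl9 to 0.69 for Wfs1, and Cdkn1c has the most even PBS values of the 6.

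In the genome Cdkn1c sits between Kcnq1 and Slc22a18 in an imprinted domain. Neither neighbour passed the test. Slc22a18, a transporter gene of the same domain, read 89.7 and 99.2 with PBS and 76.2 and 82.5 with TGFb2, a log2 difference of -0.21 (SE 0.19, limma adjusted p = 0.72). The tested probe set of the potassium channel gene Kcnq1 differed by 0.01 (limma adjusted p = 0.99). Of 10 tested genes of the domain, 0 rose and 0 fell in limma (0 at an unadjusted p under 0.05), with a median difference of 0.24 against 0.003 over all 5639 tested genes. That median was -0.06 without PBS replicate 1. Osbpl5, an oxysterol-binding protein gene, averaged 23.3 ± 22.6 under PBS and 50.9 ± 13.3 under TGFb2 (adjusted p = 0.47). Ascl2, a helix-loop-helix factor, averaged 33.3 ± 6.15 and 54.1 ± 1.70 (adjusted p = 0.45). The log2 difference of Osbpl5, 0.91, was 0.27 and 1.55 without PBS replicates 1 and 2.

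Imprinted genes elsewhere were mostly dim, with 12 of 18 on the array below the level filter. Of the 6 tested, 0 rose and 0 fell in limma (0 at an unadjusted p under 0.05). Sgce, the sarcoglycan epsilon gene, averaged 38.8 ± 13.9 and 54.6 ± 22.3 (adjusted p = 0.72), and Slc38a4, an amino acid transporter gene, 29.6 ± 14.3 and 21.6 ± 14.2 (adjusted p = 0.81). With 1 array left out the log2 difference of Sgce ran from 0.03 (without TGFb2 replicate 1) to 0.69 (without TGFb2 replicate 2), and that of Slc38a4 from -0.64 (without PBS replicate 2) to 0.10 (without TGFb2 replicate 1).

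The targets of the inhibitors, the cyclins and kinases of G1, showed no called change, in a fit that recovered 18.6% of simulated 2-fold changes. Of 9 tested, 0 rose and 0 fell in limma (1 at an unadjusted p under 0.05), with a median of -0.01. The share of all tested genes at that unadjusted level is not given, so such counts have no background for any list. Cyclin D1 (Ccnd1), partner of CDK4 and CDK6, read 81.9 and 57.1 with PBS and 9.1 and 41 with TGFb2 (log2 difference -1.19, SE 0.40, adjusted p = 0.29). The difference was -0.58 without TGFb2 replicate 1 and -1.79 without replicate 2, and a second, dimmer probe set gave -0.04 (adjusted p = 0.97). Cyclin E1 (Ccne1), partner of CDK2, read 58.1 and 158.7, then 141.8 and 117.7 (adjusted p = 0.77). The groups of Ccne1 overlapped, and its difference of 0.36 was -0.27 without PBS replicate 1.

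Further along the pathway, the Rb and E2F proteins, through which the inhibitors act on transcription, had 7 tested members, of which 0 rose and 0 fell in limma (1 at an unadjusted p under 0.05), with a median of -0.28. The retinoblastoma gene Rb1 averaged 97.2 ± 31.3 under PBS and 57.1 ± 6.65 under TGFb2 (adjusted p = 0.39), and E2f5 66.6 ± 1.06 and 51.8 ± 10.2 (adjusted p = 0.67). The log2 difference of Rb1, -0.61, was -0.32 without PBS replicate 1, and that of E2f5, -0.30, was -0.14 and -0.45 without TGFb2 replicates 1 and 2. Of 16 tested DNA replication genes, 0 rose and 0 fell (1 at an unadjusted p under 0.05; median 0.07). Pcna, the sliding clamp of DNA polymerase and a partner of p21, read 1442.4 and 1689.7 with PBS and 769.4 and 1034.9 with TGFb2, a log2 difference of -0.80 (SE 0.18, limma adjusted p = 0.11). Its groups did not overlap, but it missed the threshold. The replicative helicase gene Mcm5 differed by -0.54 (adjusted p = 0.51), or by -0.16 without TGFb2 replicate 1 and -0.93 without replicate 2.

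Of 11 tested cyclins and mitosis genes of S to M phase, 0 rose and 0 fell in limma (2 at an unadjusted p under 0.05), with a median of -0.001. Cyclin A2 (Ccna2) averaged 143 ± 6.15 under PBS and 87.6 ± 20.6 under TGFb2 (adjusted p = 0.27), and the tubulin-binding Stmn1 287 ± 14.1 and 185 ± 17.7 (adjusted p = 0.21). Of 8 tested genes of cullin ubiquitin ligases, including the SCF parts that act on p27, 0 rose and 0 fell (0 at an unadjusted p under 0.05; median -0.06). Skp1 differed by -0.29 (adjusted p = 0.64) and Ddb1 by -0.26 (adjusted p = 0.58). Leaving out 1 array moved Skp1 to between -0.48 (PBS replicate 1 out) and -0.11 (PBS replicate 2 out), and Ddb1 to -0.16 without PBS replicate 2.

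The lists of the p53 pathway, the TGF-beta cytostatic arm and glucocorticoid response held 1 called gene each, and the other 8 lists 0. In the p53 pathway 1 of 14 tested genes rose and 0 fell, with 13 not called (median -0.08). Of the 14, 5 had an unadjusted limma p under 0.05, the called gene among them, with no background share given. Phlda3, a p53 target that restrains Akt, read 54.2 and 73.8 with PBS and 194.8 and 153.2 with TGFb2, a log2 difference of 1.26 (SE 0.22, limma adjusted p = 0.046). Both TGFb2 arrays were above both PBS arrays, but the call was lost on leaving out any array (adjusted p from 0.054 without PBS replicate 2 to 0.19 without PBS replicate 1, with both TGFb2 arrays between). It was also lost with a pseudocount of 1 (limma adjusted p = 0.053) and after quantile normalization (0.054). The same held without the filter (0.17) and without the intensity trend (0.095).

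In the arm by which TGF-beta arrests epithelial cells, 1 of 7 tested genes rose and 0 fell, with 6 not called. Id1, Skil, Smad3 and Tgfbr2 of this list lay below the level filter. The list mixes genes that the arm lowers, such as Myc, with the receptor gene Tgfbr1, so its median has no single direction. The median was 0.68, or 0.39 without TGFb2 replicate 2. An unadjusted limma p under 0.05 was reached by 4 of the 7, again with no background share given. The member that rose was Id3, an inhibitor of helix-loop-helix factors that TGF-beta lowers in epithelial arrest. It read 29.5 and 25 with PBS and 171.1 and 119.3 with TGFb2, a log2 difference of 1.91 (SE 0.23, limma adjusted p = 0.020). Id3 missed the threshold without the filter (limma adjusted p = 0.11) and without TGFb2 replicate 1 (log2 difference 1.67). Of 20 tested transcriptional regulators of the inhibitors, 0 rose and 0 fell in limma (2 at an unadjusted p under 0.05; median -0.10). Cebpa, a myeloid factor that slows division, averaged 1995 ± 436 under PBS and 3860 ± 909 under TGFb2 (adjusted p = 0.089) and passed without PBS replicate 2 (limma adjusted p = 0.036). Myc, a repressor of Cdkn1a and Cdkn2b, read 43.9 and 37.7 with PBS and 27 and 18.6 with TGFb2 (log2 difference -0.57, SE 0.27, adjusted p = 0.47).

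Glucocorticoids are known inducers of Cdkn1c, so genes that respond to them formed the last list. Here 1 of 11 tested genes rose and 0 fell, with 10 not called (median -0.10). Of the 11, 3 had an unadjusted limma p under 0.05, the called gene among them, with no background share given. The kinase gene Sgk1 rose; it read 1656.4 and 1818.9 with PBS and 2967.3 and 2898.4 with TGFb2, which differ by 0.75 on the log2 scale (SE 0.12, limma adjusted p = 0.040). The call was lost without the filter (limma adjusted p = 0.16), without the intensity trend (0.19) and on leaving out any array. With 1 array left out the difference ran from 0.68 (PBS replicate 1 out) to 0.82 (PBS replicate 2 out). Over all 11 lists together, 3 of 117 tested genes rose and 0 fell, or 2.56%, where 1.21% of all tested genes were called. The largest difference among the tested genes of these lists was that of Id3, at 1.91.

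**Figure D4:**
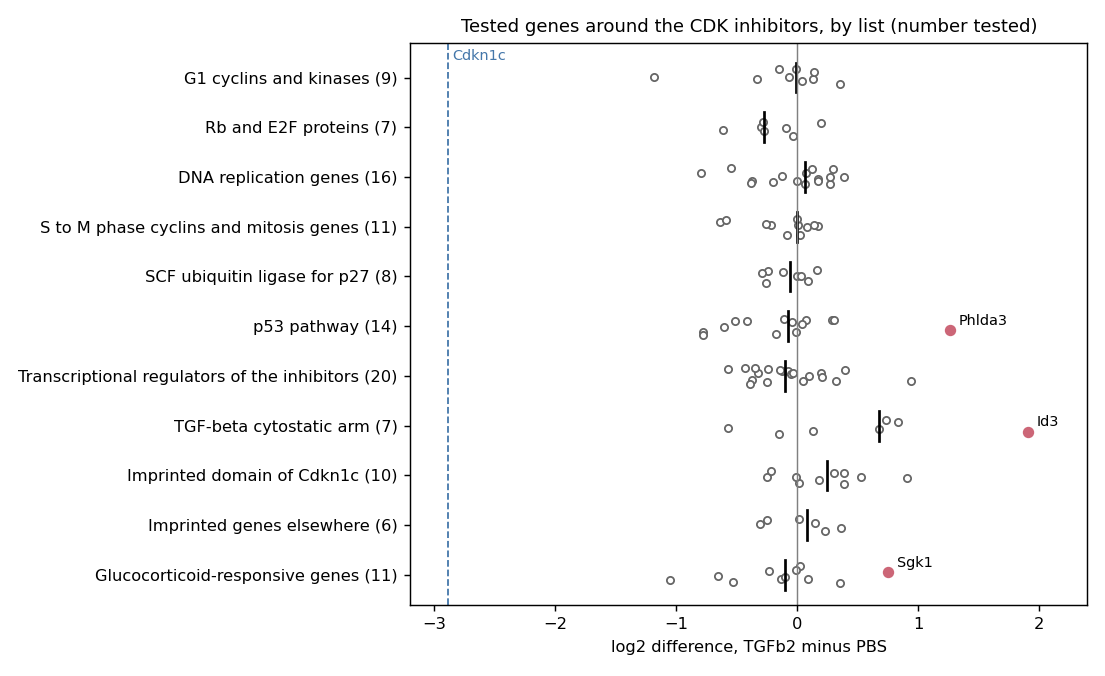
Log2 difference, TGFb2 minus PBS (horizontal axis), of the tested genes of 11 lists around the CDK inhibitors, with the number tested in parentheses; filled red points passed an adjusted p of 0.05 in limma, bars are list medians and the vertical spread within a list is arbitrary. Phlda3, Id3 and Sgk1 passed, all higher. The dashed line marks Cdkn1c at -2.89, the gene for whose fall the family was chosen.

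In adherent cells measured in bulk, fewer cells of a type and less RNA per cell cannot be told apart. Over all tested genes, 1.21% were called in limma, a share to set beside the marker counts that follow. Of 15 fibroblast and mesothelium markers on the array, 11 were tested, 3 rose and 1 fell. Decorin (Dcn) fell from 1130.5 and 746.8 to 318.7 and 256.5 (log2 difference -1.63, limma adjusted p = 0.026), while Col1a1, Fbln2 and Col5a2 rose by 1.29, 1.53 and 1.42. A second, similarly bright probe set of Col1a1 rose by 2.72 (limma adjusted p = 0.0018). The dimmer probe set of Col1a2 rose by 1.86 (adjusted p = 0.017, and 0.12 and 0.075 without TGFb2 replicates 1 and 2), while the brighter, which stands for the gene in the count, differed by 0.16 (adjusted p = 0.78). The call of Fbln2 was lost on leaving out any array (adjusted p 0.053 to 0.16). Those of Dcn and of the first Col1a1 probe set were lost without any array but PBS replicate 2 (0.053 to 0.12 and 0.056 to 0.12), and that of Col5a2 without any but PBS replicate 1 (0.13 to 0.18). The summed signal of the 15 markers was 2536 and 1807 under PBS and 2240 and 1907 under TGFb2, so the groups overlapped. Without Dcn, the marker that fell, the sums were 1406 and 1060 under PBS and 1921 and 1651 under TGFb2, with no overlap. Without Col1a1, Fbln2 or Col5a2 the groups still overlapped. The sums without Col1a1 were 2392 and 1665 under PBS and 1866 and 1538 under TGFb2. The mesothelin gene Msln (2.9 to 8) and the keratin gene Krt19 (2 to 25.4 in its brighter probe set) were near 0 on most arrays, and no marker was listed at 0. Other mesothelial markers were brighter and passed the filter, and none of them was called. Upk3b read 92.9 and 76 with PBS and 63.4 and 43.2 with TGFb2, Krt8 ran from 23.5 to 50.6 and Wt1 from 18.6 to 35.3. Of 8 neutrophil markers 3 were tested and S100a8 rose (limma adjusted p = 0.024, and 0.12 and 0.10 without TGFb2 replicates 1 and 2), with list sums of 308 and 351 under PBS and 748 and 836 under TGFb2. Without S100a8 these sums were 180 and 140 under PBS and 198 and 157 under TGFb2, which overlap. Each gene left out of a fibroblast or neutrophil sum was called in this same contrast. Those sums therefore show only how far 1 gene carried them and are no test of cell content. Ly6g, Mpo and Ngp stayed below the filter. For B cells, T cells, mast cells and eosinophils the groups' sums overlapped in all but eosinophils, whose 3 markers summed to 17.3 to 18.3 under PBS and 18.5 to 41.8 under TGFb2, with none tested. The part of such cells in the Cdkn1c difference was not tested.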

How the data were processed

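Biotin-labelled cRNA of 4 samples was hybridised to Affymetrix arrays. The deposited values are probe set intensities, computed by the authors with MAS5 (version not stated), per the submitters' processing notes; detection calls, cell files and scan dates were not used here. Of 12488 probe sets, 66 controls were left out; 10833 of the others carry 1 gene symbol, 396 several and 1193 none in the platform annotation, and 10817 gene IDs matched the RefSeq table with 0 symbols changed.

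Signals were taken to log2(signal + 15), 15 being 10% of the 2% trimmed mean, which understates differences of dim genes. The 7453 probe sets whose mean log2 signal reached the 40th percentile were fitted by lmFit and eBayes of limma 3.58.1, under R 4.3.3 (with an intensity trend, 2 residual and 5.6 prior degrees of freedom), two-sided, with Benjamini-Hochberg adjustment over all of them and a threshold of 0.05. Intervals of 95% are from this fit. In simulated data for this comparison (7453 probe sets, 200 changed), it recovered 18.6% of 2-fold and 94.0% of 4-fold changes, with 6.53% and 4.86% of calls false. An exact permutation test of 2 against 2 arrays cannot give a p below 0.333, so none was used. The number of arrays limits the precision.

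Each listed gene stands by its brightest tested probe set. The inhibitors and the 11 gene lists were chosen with earlier results of these data known. Named genes are all inhibitor probe sets, up to 2 passing genes per direction of a list (or its 2 largest differences where none passed), the marker genes that passed and the 5 genes nearest to Cdkn1c; second probe sets of Col1a1 and Col1a2 were added after their values were seen. Alternatives covered the pseudocount, normalization, filter, variance model, replicate number, probe sets per gene and each array left out.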

Additional observations from a re-analysis of the deposited data

How the results depend on the processing

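The log2 difference of Cdkn1c ran from -3.13 to -2.60 over 13 alternatives, a description only, since the family was chosen for this fall. Its change relative to the mean of Cdkn1a, Cdkn2c and Cdkn2d ran from -3.48 to -2.76 over the same alternatives, which are also its lowest and highest values when arrays were left out. Of the relatives, Cdkn1a (98067_at), Cdkn1b (100278_at), Cdkn2b and Cdkn2c kept a positive difference throughout; the other 4 probe sets changed sign under at least 1 alternative, 94881_at of Cdkn1a to -0.11 without TGFb2 replicate 2. The count of called probe sets, 88, was 58 with a pseudocount of 1, 6 without the filter and 16 without the intensity trend. When arrays were left out it lay between 10 (without TGFb2 replicate 1) and 51 (without PBS replicate 2), with the lone array assumed to vary like the other group. Called genes of the lists, 3 in all, were 0 without the filter, 1 without the intensity trend, 5 with robust eBayes and 0 to 3 with an array left out. With the replicate number as a block, 320 probe sets and 9 list genes were called, Pcna (adjusted p = 0.0041) and Cebpa (0.00024) among them. The labels do not say that the numbers pair the arrays, whose same-numbered deviations correlated at 0.15. The cause of these differences was not tested. The share of calls that were higher, 69.3%, was 93.8% without the intensity trend, 83.3% without the filter and 55.6% with the block. Depth cannot be judged without detection calls, and Cdkn1b, Cdkn2a and Cdkn2b lay at signals where none of these settings gives a firm value.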

Other observations

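Some genes of the lists came near the threshold without passing it; they were singled out after their values were seen. Plk2, a p53-responsive kinase gene, read 2987.6 and 2484.7 with PBS and 1669.1 and 1507.6 with TGFb2, a log2 difference of -0.77 (limma adjusted p = 0.054). Id2, a relative of Id3, read 1824.3 and 2108.9, then 3499.3 and 3066.8, a log2 difference of 0.74 (limma adjusted p = 0.054). Dusp1, a phosphatase of MAP kinases that glucocorticoids induce, read 777.7 and 552.8, then 354.8 and 267.9, a log2 difference of -1.05 (limma adjusted p = 0.079). In each of the 3 the groups did not overlap, as in 42.8% of tested probe sets.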
